A study of Rattus norvegicus with 24 samples.

Results

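The 7 genes described here are Sult1a1, Fmo2, Card9, Eya2, Dusp15, Dupd1 and Ccdc181, whose RNA in rat myocardium was higher 10 or 20 weeks after mitral regurgitation (MR) surgery than after Sham surgery. They were chosen by that rise, that is by their level in the MR libraries of 10 and 20 weeks against the Sham libraries, so their levels at 10 and 20 weeks against Sham are given as a description, without a test. They are 7 of the 10797 genes that appear in any of the 4 deposited tables, and 6 of them are listed in every table. Dupd1 has no row in the table of the 2 week MR libraries. At 40 weeks the mean level of Dupd1 was 7.604 times that of Sham, where it had only 3 to 6 reads a library. A gene read so little in Sham is listed only where MR libraries carry it, so a level above Sham was set by the listing. At 40 weeks the level of Ccdc181 was 3.44 times that of Sham, and those of Dusp15 and Eya2 2.51 and 1.70 times. Card9, Fmo2 and Sult1a1 were at 1.32, 1.29 and 1.12 times.

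Perforating a mitral leaflet through an opened chest lets blood leak back into the atrium at each beat and loads the heart with volume, and the Sham rats had the operation with the leaflet left whole. All rats were of the Sprague-Dawley strain, and no other treatment or allele is named. The groups were MR at 2 weeks (n = 4 libraries) and MR at 10, 20 and 40 weeks (n = 5 each), set against Sham at 2 weeks (n = 5). The Sham libraries all come from 2 weeks, so at 10, 20 and 40 weeks duration of MR, age and handling cannot be told apart. The labels give no age, sex, heart chamber or batch and do not say that each library is a separate animal. A p-value here sets a difference against the spread between libraries, and whether it carries over to rats is not known. Libraries held 7.69 to 12.1 M reads on listed genes. All 10 cardiomyocyte markers looked for, among them Myh6, Tnnt2 and Ryr2, were listed in every table. In whole tissue, fewer cells of a type and less RNA per cell cannot be told apart.

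The genes have different roles. Sult1a1 is a cytosolic sulfotransferase that adds sulfate to phenols, including catechols and phenolic drugs. Fmo2 belongs to the flavin monooxygenases, a family of the endoplasmic reticulum whose active enzymes oxidise nitrogen and sulfur atoms of foreign compounds. RNA levels do not show whether the Fmo2 of these rats yields an active enzyme. Card9 is the adaptor through which C-type lectin receptors and the kinase Syk reach Bcl10, Malt1 and NF-κB in myeloid cells. Eya2 is a co-activator of homeodomain factors such as Six4 and is itself a tyrosine phosphatase. Dusp15 and Dupd1 are small dual-specificity phosphatases of the atypical kind, which lack the MAP kinase binding region of the classical members. Ccdc181 is a coiled-coil protein that in the mouse binds microtubules and is found in sperm flagella and motile cilia.

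The tables place Sult1a1 at chr1:198100586-198104107 on the minus strand and Fmo2 at chr13:80755051-80775265 on the minus strand of build rn6. Ccdc181 lies on the same chromosome as Fmo2, at chr13:82574980-82588638 on the plus strand. Card9 at chr3:3798346-3806714 and Dusp15 at chr3:148417991-148428495 are on the minus strand, and Eya2 at chr3:162357356-162470066 is on the plus strand. Dupd1 is at chr15:2766929-2806557 on the plus strand. The genes are thus spread over 4 chromosomes, and none of the 7 is the nearest listed neighbour of another.

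The promoters of 4 of them are printed because they belong to the pair of genes that ran most alike across libraries, Sult1a1 and Fmo2, and to the phosphatases, Dusp15 and Dupd1. Each runs 5′ to 3′ from 250 bases before to 50 bases after the annotated start, from RefSeq on assembly GRCr8, and capitals mark the matches to the motifs named after them. RefSeq gives Dupd1 the symbol Dusp29. The windows are chr1:190706063-190706362 (minus strand), chr13:77777485-77777784 (minus strand), chr3:161879201-161879500 (minus strand) and chr15:2642656-2642955 (plus strand), in the order printed.
Sult1a1: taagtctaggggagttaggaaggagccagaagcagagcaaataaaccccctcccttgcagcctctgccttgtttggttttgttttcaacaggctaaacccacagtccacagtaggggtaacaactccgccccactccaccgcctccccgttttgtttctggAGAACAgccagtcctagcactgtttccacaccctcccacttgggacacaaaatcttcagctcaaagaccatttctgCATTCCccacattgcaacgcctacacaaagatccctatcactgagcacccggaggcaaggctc
Fmo2: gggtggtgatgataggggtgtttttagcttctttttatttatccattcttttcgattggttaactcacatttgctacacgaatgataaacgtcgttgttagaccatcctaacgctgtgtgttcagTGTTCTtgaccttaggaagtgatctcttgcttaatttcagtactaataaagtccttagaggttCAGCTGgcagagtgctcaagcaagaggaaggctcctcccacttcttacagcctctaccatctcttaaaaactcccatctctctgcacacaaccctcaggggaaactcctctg
Dusp15: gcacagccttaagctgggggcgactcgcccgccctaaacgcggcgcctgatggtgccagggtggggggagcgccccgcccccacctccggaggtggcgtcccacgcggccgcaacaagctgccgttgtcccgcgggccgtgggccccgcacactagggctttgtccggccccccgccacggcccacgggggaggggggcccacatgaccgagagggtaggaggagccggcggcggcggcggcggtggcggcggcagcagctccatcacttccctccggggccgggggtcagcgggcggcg
Dupd1: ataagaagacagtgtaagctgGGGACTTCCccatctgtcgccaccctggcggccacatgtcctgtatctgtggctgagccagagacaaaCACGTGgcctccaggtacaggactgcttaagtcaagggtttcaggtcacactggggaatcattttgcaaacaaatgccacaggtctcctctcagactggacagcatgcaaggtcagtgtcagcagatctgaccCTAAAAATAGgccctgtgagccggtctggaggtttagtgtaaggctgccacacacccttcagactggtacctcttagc

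Of the 7 genes, 6 had a promoter in the RefSeq table, and 9 motifs were searched on both strands. The Sult1a1 promoter holds CATTCC, the letters of TEAD sites, at position -13 from the start, and AGAACA, the letters that, facing each other in a pair, bind steroid hormone receptors such as the glucocorticoid receptor, at -89. The Fmo2 promoter holds AGAACA on the other strand at -125, and the muscle E-box CAGCTG at -62. The Dupd1 promoter holds GGGACTTCC, a form of the NF-κB site, at -229, the clock E-box CACGTG at -161, and at -28 the letters CTA and TAG with 4 bases between them, the core of a MEF2 site. CATTCC is found in 14.2% of all 33469 promoters of this length, AGAACA in 20.7%, CAGCTG in 15.1%, CACGTG in 6.42%, the CTA and TAG pair in 3.84% and GGGACTTCC in 0.783%. The promoters of Ccdc181, Dusp15 and Card9 held none of the motifs. Also searched, and found in none of the 6 windows, were TATAAA (14.2% of all promoters), TCAGGTT (4.03%) and the full glucocorticoid receptor palindrome (0.439%). GC content was 77.3% in the Dusp15 window and 61.3% in that of Card9, against 43.3% for Fmo2, 51.0% for Ccdc181, 52.3% for Sult1a1 and 53.0% for Dupd1, where the median of all promoters is 51.7%. A match is a run of letters and was not tested for binding.

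Levels below are normalised read counts on a scale joined over the 24 libraries, in which 1 unit stands for about 21.5 reads. They can be compared between libraries for a gene, but not between genes, since they are not divided by length. For several genes below, every library of a time lay above every Sham library. The share of all genes with that order against Sham was not counted, so nothing particular to a gene is read from it.

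Sult1a1 had 23.3, 11.6, 13.9 and 9.18 units in MR at 2 weeks. It had 43.2, 31.1, 31.0, 55.7 and 20.1 in MR at 10 weeks and 33.1, 29.1, 40.5, 32.3 and 20.0 in MR at 20 weeks. In MR at 40 weeks it had 10.5, 13.3, 18.8, 9.76 and 11.5, against 14.2, 15.9, 8.68, 8.43 and 9.61 in Sham. Every library of 10 and of 20 weeks was above every Sham library and also above every MR library of 40 weeks, while at 40 weeks 1 of 5 was above all Sham libraries. The means were 14.5 ± 6.20 (SD, n = 4) at 2 weeks, 36.2 ± 13.6, 31.0 ± 7.44 and 12.8 ± 3.60 (SD, n = 5 each) at 10, 20 and 40 weeks, and 11.4 ± 3.47 (SD, n = 5) in Sham. The level of this sulfotransferase thus stood at a multiple of 3.18 of the Sham mean at 10 weeks, 2.72 at 20 weeks and 1.12 at 40 weeks.

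Fmo2 followed the same course. It had 28.6, 11.4, 20.5 and 12.7 units in MR at 2 weeks, and 45.4, 42.9, 31.4, 43.5 and 24.3 at 10 weeks. At 20 weeks it had 42.9, 32.1, 36.0, 33.4 and 23.5, and at 40 weeks 17.4, 21.4, 21.4, 18.5 and 23.5, against 18.3, 19.2, 11.9, 13.5 and 16.4 in Sham. All 10 libraries of 10 and 20 weeks lay above all Sham libraries, and 3 of 5 did so at 40 weeks. The means were 37.5 ± 9.22 at 10 weeks, 33.6 ± 7.03 at 20 weeks and 20.5 ± 2.47 at 40 weeks, against 15.9 ± 3.13 in Sham (SD, n = 5 each).

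Card9, the myeloid adaptor, had 21.6, 8.32, 8.87 and 10.8 units in MR at 2 weeks and 18.8, 30.0, 37.1, 36.0 and 10.8 at 10 weeks. It had 27.2, 36.4, 32.3, 28.6 and 22.1 at 20 weeks and 16.5, 15.8, 15.2, 11.1 and 19.8 at 40 weeks, against 14.1, 14.2, 9.44, 10.98 and 10.6 in Sham. The 20 week libraries were all above both the Sham and the 40 week libraries. At 10 weeks, replicate 5 lay inside the Sham range and the other 4 libraries above it. Card9 averaged 29.3 ± 5.41 at 20 weeks and 15.7 ± 3.13 at 40 weeks, against 11.9 ± 2.15 in Sham (SD, n = 5 each).

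Eya2 had 5.27, 4.06, 7.02 and 5.62 units in MR at 2 weeks, all within the Sham range of 3.94 to 7.25. It had 8.46, 13.9, 14.02, 18.1 and 10.1 at 10 weeks, 9.31, 10.8, 14.1, 12.3 and 9.58 at 20 weeks. At 40 weeks it had 7.73, 8.87, 12.1, 7.73 and 12.8, against 5.34, 5.99, 3.94, 7.25 and 6.45 in Sham. All 15 libraries of the 3 later times were above all Sham libraries. The choice of the genes favoured this order at 10 and 20 weeks. At 40 weeks 16.3% of all genes were called higher than Sham by limma, so the order may be common there. The means were 12.9 ± 3.77, 11.2 ± 2.00 and 9.85 ± 2.44 at 10, 20 and 40 weeks, against 5.80 ± 1.25 in Sham (SD, n = 5 each).

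Dusp15 had 6.95, 2.96, 3.56 and 5.09 units in MR at 2 weeks. It had 17.1, 11.5, 35.7, 11.04 and 4.24 at 10 weeks, 20.5, 26.1, 16.8, 18.2 and 12.1 at 20 weeks. At 40 weeks it had 11.6, 7.31, 8.15, 10.1 and 12.8, against 6.42, 5.24, 2.75, 2.69 and 2.77 in Sham. The 10 week libraries were the most uneven, with a coefficient of variation of 75.2%, since replicate 3 was at 35.7 units and replicate 5 at 4.24, inside the Sham range. At 20 and 40 weeks every library was above every Sham library. Dusp15 averaged 18.7 ± 5.15 at 20 weeks, a multiple of 4.71 of the Sham mean of 3.98 ± 1.746 (SD, n = 5 each).

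Dupd1, the other phosphatase, was near the limit of the tables. It had 43, 19, 27, 41 and 5 reads in MR at 10 weeks, 36, 77, 20, 51 and 56 at 20 weeks. At 40 weeks it had 78, 12, 27, 35 and 34, against 6, 3, 6, 3 and 5 in Sham. All libraries of 20 and 40 weeks were above all Sham libraries, and 4 of 5 were at 10 weeks, replicate 5 being the exception. In units it averaged 1.15 ± 0.697, 2.32 ± 1.01 and 1.76 ± 1.16 at 10, 20 and 40 weeks, against 0.231 ± 0.0887 in Sham (SD, n = 5 each). Every gene of a table has at least 1 read in each of its libraries and at least 31 in its highest, so a gene read as little as Dupd1 in Sham is listed only where MR libraries carry it.

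Ccdc181 had 5.65, 3.67, 3.20 and 5.997 units in MR at 2 weeks and 7.16, 13.1, 11.3, 9.77 and 5.05 at 10 weeks. It had 7.90, 10.8, 15.2, 11.6 and 10.9 at 20 weeks and 19.2, 13.7, 8.11, 13.5 and 15.1 at 40 weeks, against 3.24, 4.58, 4.04, 3.82 and 4.56 in Sham. All libraries of 10, 20 and 40 weeks were above all Sham libraries. The means were 4.63 ± 1.40 (SD, n = 4) at 2 weeks and 9.28 ± 3.22, 11.3 ± 2.60 and 13.9 ± 3.99 (SD, n = 5 each) at 10, 20 and 40 weeks, against 4.05 ± 0.561 (SD, n = 5) in Sham, so the highest mean was that of the last time. Neighbouring times overlapped library by library.

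**Figure D1:**
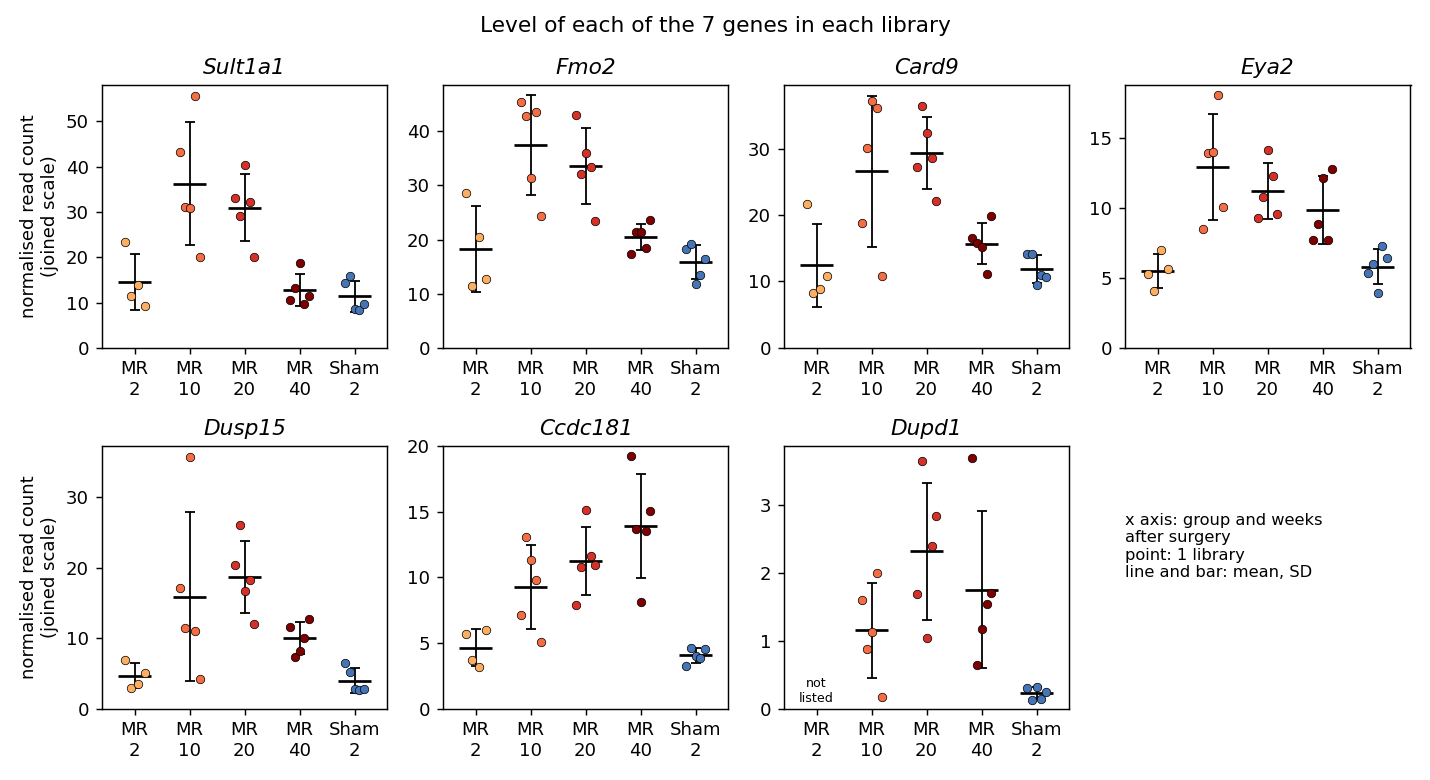
Normalised read count on the joined scale (y axis, from 0) by group and weeks after surgery (x axis), a panel for each of the 7 genes; each point is 1 library, and the line and bar are the mean and SD. Sult1a1, Fmo2 and Card9 stand highest at 10 and 20 weeks, while Ccdc181 averages 13.9 units at 40 weeks, against 4.05 in Sham.

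The differences from Sham that led to the choice are given next as log2 values in the scale of each deposited table, on log2(value + 1), which understates changes of genes with low values. A gene was called at a limma adjusted p under 0.05 (Benjamini-Hochberg over all genes tested). At 10 weeks 0.158% of 10096 genes were called higher, 16 in all, and at 20 weeks 0.0698% of 10025, 7 in all. Together these are 21 genes, of which 7 are the genes described here and 14 are others, and Sult1a1 and Ccdc181 were called at both times. Since the choice used these comparisons, nothing is read from the share. The number of calls at 10 weeks depended on single libraries. It was 0 when MR replicate 1, 2 or 3 or Sham replicate 4 or 5 was left out (limma, with 791 to 1255 genes at an unadjusted p under 0.05), to 7 without MR replicate 4, and was 29 without MR replicate 5 or Sham replicate 1, against 17 in either direction with all libraries. At 20 weeks it was 3 without MR replicate 2, 3 or 4, 2 without Sham replicate 4 or 5 and 14 without MR replicate 5, against 7.

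Sult1a1 differed from Sham by 1.62 ± 0.24 (log2, SE) at 10 weeks and 1.37 ± 0.21 at 20 weeks, and Fmo2 by 1.24 ± 0.18 and 1.02 ± 0.18. Eya2 differed by 1.08 ± 0.20 at 10 weeks and 0.84 ± 0.17 at 20 weeks, Card9 by 1.06 ± 0.27 and 1.22 ± 0.17, and Ccdc181 by 1.04 ± 0.19 and 1.26 ± 0.16. Dusp15 had 1.62 ± 0.39 at 10 weeks and 2.01 ± 0.25 at 20 weeks. Dupd1 passed the filter on low values, a table mean of 1, only at 20 weeks and through its MR libraries, with a log2 difference of 1.38 ± 0.22. With pseudocounts of 0.25 and 4 in place of 1 that value was 2.34 and 0.57, so its size is set by the pseudocount. The medians of all genes were 0.06 at 10 weeks and -0.00 at 20 weeks.

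Near the threshold, Ccdc181 was the last gene called at 10 weeks (1.04; adjusted p = 0.0491 by limma) and Castor1, a sensor of arginine, the first outside (1.05; adjusted p = 0.0513 by limma). At 20 weeks Fmo2 (1.02) and Reep6 (0.84) were the first outside, both at an adjusted p of 0.0616 by limma. Thus Sult1a1, Fmo2, Eya2 and Ccdc181 were called at 10 weeks, and Sult1a1, Ccdc181, Dusp15, Dupd1 and Card9 at 20 weeks. The 14 other genes called at these times are not among those described here, so a call did not by itself decide the choice.

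Outside the times of choice, log2 differences from the same Sham libraries were small at 2 weeks, between -0.14 for Eya2 and 0.21 for Sult1a1, beside a median of -0.07 over all genes. At 40 weeks Ccdc181 stood at 1.36 ± 0.17 (log2, SE), Dusp15 at 1.02 ± 0.22 and Eya2 at 0.50 ± 0.18, while Card9 was at 0.20 ± 0.16, Fmo2 at 0.19 ± 0.15 and Sult1a1 at -0.01 ± 0.21. The median of all genes was -0.15 there, and 16.3% of all genes were called higher and 30.95% lower by limma. On the joined scale, where that median is close to 0, Sult1a1 was at 0.16, Fmo2 at 0.36 and Card9 at 0.37. All 4 times share the Sham libraries, which helped to choose the genes, so these values carry no test.

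**Figure D2:**
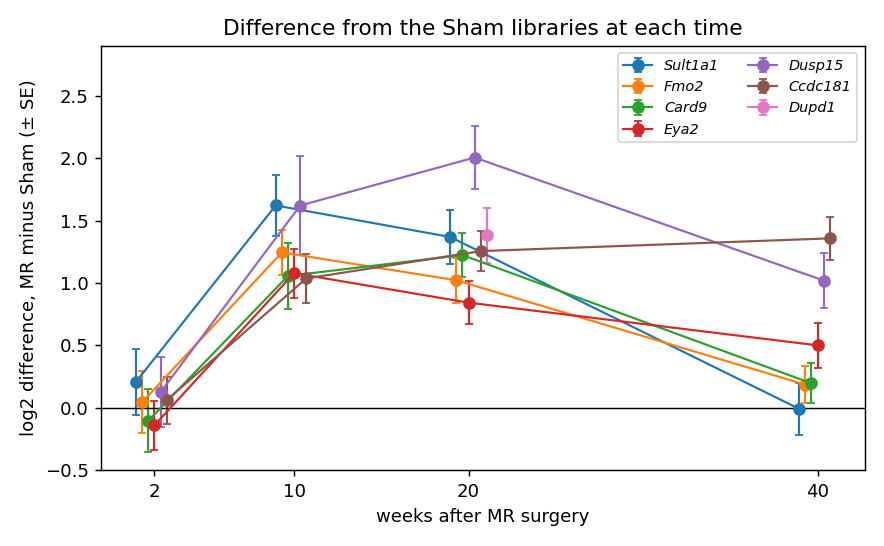
Log2 difference of MR minus Sham (y axis) in the scale of each deposited table at 2, 10, 20 and 40 weeks (x axis, to scale, points shifted sideways for legibility) for the 7 genes; bars are the SE and lines join the times of a gene. At 40 weeks Ccdc181 is at 1.36 and Sult1a1 at -0.01; Dupd1 has a value at 20 weeks alone.

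The MR libraries of 2 and of 40 weeks took no part in the choice, so the genes could be tested between those times. Of the 6 tested, Ccdc181, Dusp15 and Eya2 were higher at 40 weeks than at 2 weeks by limma. None was lower, nor at an unadjusted p under 0.05, nor by edgeR or DESeq2. Over all 10044 genes 21.9% were called higher and 18.4% lower by the same limma test, so 3 of 6 is to be read against a comparison in which a large part of the listed genes differed. The split between higher and lower depends on the scaling: 2202 genes higher and 1849 lower on the joined scale, 1512 and 2733 on the deposited scale, and 1548 and 2643 with equal library totals, where the medians of all genes were -0.15 and -0.14. Ccdc181, Dusp15 and Eya2 passed under all 3 scalings.

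Ccdc181 averaged 13.9 ± 3.99 units (SD, n = 5) in MR at 40 weeks and 4.63 ± 1.40 (SD, n = 4) in MR at 2 weeks, a log2 difference of 1.40 ± 0.23 (SE; 95% interval 0.90 to 1.90; limma adjusted p = 0.00120, and 3.57e-07 to 0.00597 over the alternatives). Dusp15 averaged 9.99 ± 2.30 units (SD, n = 5) at 40 weeks and 4.64 ± 1.78 (SD, n = 4) at 2 weeks. Its log2 difference was 0.99 ± 0.22 (SE; 95% interval 0.51 to 1.47; limma adjusted p = 0.00496, and 0.000569 to 0.0270 over the alternatives). Eya2 averaged 9.85 ± 2.44 units (SD, n = 5) at 40 weeks and 5.49 ± 1.22 (SD, n = 4) at 2 weeks, a log2 difference of 0.73 ± 0.19 (SE; 95% interval 0.32 to 1.14; limma adjusted p = 0.0103, and 0.00234 to 0.0283 over the alternatives). For each of the 3, all 5 libraries of 40 weeks were above all 4 of 2 weeks, an order that 17.9% of all tested genes showed.

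Card9, Fmo2 and Sult1a1 did not pass. Card9 differed by 0.39 ± 0.25 (log2, SE; 95% interval -0.14 to 0.93; limma adjusted p = 0.219, and 0.00863 to 0.475 over the alternatives) and Fmo2 by 0.23 ± 0.23 (95% interval -0.26 to 0.73; limma adjusted p = 0.432, and 0.0170 to 0.868 over the alternatives). Sult1a1 had -0.13 ± 0.25 (95% interval -0.66 to 0.40; limma adjusted p = 0.702, and 0.341 to 0.902 over the alternatives). These intervals still allow changes up to the sizes at their ends. All 3 values depended on single libraries. Without MR 2 week replicate 1 Card9 was at 0.68 (limma adjusted p = 0.00979), Fmo2 at 0.47 (limma adjusted p = 0.0554) and Sult1a1 at 0.11 (limma adjusted p = 0.672). Other libraries moved them the other way. Card9 was at 0.25 and Fmo2 at 0.05 without MR 2 week replicate 2, and Sult1a1 at -0.30 without MR 2 week replicate 4. Whether the genes differ from each other in this change was not tested, and Dupd1 could not be tested, having no row at 2 weeks.

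**Figure D3:**
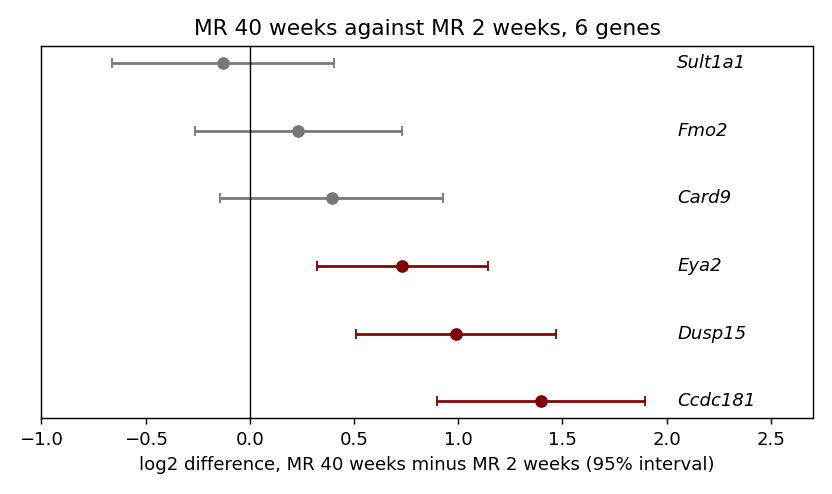
Log2 difference of MR at 40 weeks minus MR at 2 weeks (x axis) with its 95% interval for the 6 genes tested; dark red marks an adjusted p under 0.05 by limma and grey the others. Ccdc181 (1.40), Dusp15 (0.99) and Eya2 (0.73) lie clear of 0, while the intervals of Card9, Fmo2 and Sult1a1 include it.

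Within a group several of the genes were high or low in the same library. How far other genes do so in these libraries was not counted. MR 10 week replicate 5 was the lowest of its group for 6 of 7 genes, all but Eya2, with a mean log2 deviation from the group means of -0.80. MR 2 week replicate 1 was the highest of its group for 4 of 6 genes, with a mean deviation of 0.51, and replicate 2 was the lowest for 4 of 6 (-0.37). MR 20 week replicate 5 was the lowest for 4 of 7 (-0.27). In the MR 40 week group the mean deviation ran from -0.17 to 0.20, and in the Sham group from -0.23 to 0.22. There MR 40 week replicate 5 and Sham replicate 2 were each the highest of their group for 4 of 7 genes. Without MR 10 week replicate 5, the difference from Sham at 10 weeks was 1.97 for Dusp15, 1.32 for Card9 and 1.80 for Sult1a1. Leaving out the lowest library of the group had to raise these differences. Over all libraries left out in turn they ran from 1.26 to 1.97, from 0.90 to 1.32 and from 1.45 to 1.80.

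Some clock and steroid-responsive genes were also far from the rest of their group in these libraries, and the 4 genes given here were singled out after their values were seen. Per2, a repressor of the circadian clock, stood at 237 units in MR 2 week replicate 1 and at 31.8 to 69.1 in the other 3 libraries of that group, and Arntl, the activator of the clock, was at 1.82 there and 5.09 to 12.6 in the others. Fkbp5, a chaperone raised by glucocorticoids, stood at 22.6 units in MR 10 week replicate 5, against 60.6 to 98.9 in the other 4, and at 38.5 in MR 20 week replicate 5, against 63.1 to 88.4 in the others. Sham libraries held Fkbp5 at 13.4 to 85.4 units, with the highest in replicate 1. Tsc22d3, another gene raised by glucocorticoids, did not follow Fkbp5 at 10 weeks: it stood at 103.9 units in replicate 5, inside the 86.7 to 129.7 of the other 4. At 20 weeks it was at 52.6 units in replicate 5, against 84.1 to 141 in the others. The part of the hour of sampling or of steroids in the levels of the 7 genes was not tested.

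**Figure D4:**
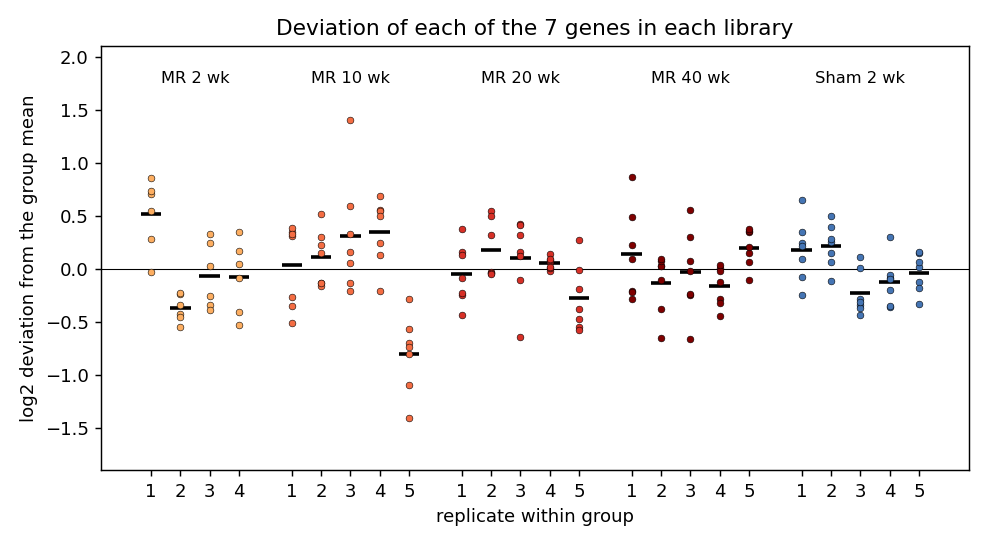
Deviation of each gene from the mean of its group (y axis, log2) in each library, by group and replicate number (x axis); each point is 1 gene and the bar the mean over the genes. MR 10 week replicate 5 lies at -0.80 on average and MR 2 week replicate 1 at 0.51.

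For the gene lists that follow, the shares over all genes between 40 and 2 weeks are 21.9% called higher and 18.4% called lower on the joined scale, 15.1% and 27.3% on the deposited scale, and 15.4% and 26.3% with equal totals. Against Sham, 12% of all genes had an unadjusted p under 0.05 at 10 weeks and 9.49% at 20 weeks. Most counts below rest on few genes and lie near these shares. The clock and glucocorticoid lists at 10 and 20 weeks, and the sulfation list at 20 weeks, lay above the unadjusted shares. The lists were chosen with earlier results of these data known, so nothing particular to a list is read from the counts.

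The relatives of Sult1a1 and Fmo2 were followed as a list of 26 further genes of sulfation and of the flavin monooxygenases, of which 11 were tested between 40 and 2 weeks. Among these, 4 were higher at 40 weeks and 1 lower by limma, with a median of 0.26 on the log2 scale beside -0.00 for all genes. Sts, the steroid sulfatase that takes off what sulfotransferases add, had 42.7 ± 3.88 units (SD, n = 5) in MR at 40 weeks and 21.2 ± 4.66 (SD, n = 4) in MR at 2 weeks, a difference of 0.99 ± 0.15 (log2, SE; limma adjusted p = 0.000847). Fmo1 was higher by 0.70 ± 0.17, Impad1, a phosphatase of the Golgi that clears the by-product of sulfation, by 0.79 ± 0.21, and Fmo5 by 0.77 ± 0.22, while Fmo4 fell by 0.60 on the log2 scale. On the deposited scale and with equal totals 4 were higher and 3 lower. Against Sham, 0 of the 10 tested were called at 10 or at 20 weeks by limma, with 2 and 4 at an unadjusted p under 0.05, beside 12% and 9.49% of all genes.

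Fmo1 is also the nearest listed neighbour of Fmo2, 9955 bases away on rn6 and on the same strand. Fmo1 had log2 differences from Sham of 0.59 ± 0.22 (SE) at 10 weeks, 0.60 ± 0.23 at 20 weeks and 0.40 ± 0.22 at 40 weeks. It was not called at 10 or 20 weeks. Beside Card9, Dnlz, whose listed end is 118 bases away on the same strand, was at 0.08 and 0.14 at 10 and 20 weeks, and fell by 0.49 on the log2 scale at 40 against 2 weeks (limma adjusted p = 0.0307). The tables also list Echs1, an enzyme of fatty acid oxidation, with a span of chr1:141821940-212579041 that contains Sult1a1. That span is far longer than those of the other listed neighbours and was treated as an annotation span, not as a true overlap. Echs1 was at 0.05 and 0.42 at 10 and 20 weeks. Sgf29, which ends 92 bases from Sult1a1 on the other strand, was at -0.13 and -0.10 at 10 and 20 weeks. Whether the counting used the strand is not stated in any source used here, so reads at such close gene ends cannot be assigned with certainty.

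Of the network of Eya proteins, their sine oculis homeodomain partners and the Dach corepressors, 3 of 11 further genes were tested, Eya3, Eya4 and Six4, with a median of 0.58 between 40 and 2 weeks. Six4, a homeodomain factor that Eya proteins bind, had 4.25 ± 0.739 units (SD, n = 5) in MR at 40 weeks and 2.12 ± 1.08 (SD, n = 4) at 2 weeks, a difference of 0.80 ± 0.21 (log2, SE; limma adjusted p = 0.0110). Eya3 was higher by 0.40 ± 0.12 (limma adjusted p = 0.0248), a call that was lost on the deposited scale (adjusted p = 0.143 by limma) and with equal totals (adjusted p = 0.161 by limma). Eya4 was at 0.58 and did not pass (limma adjusted p = 0.0776). At 10 and 20 weeks the 3 genes lay between -0.14 and 0.06 from Sham, with 0 called by limma and 0 at an unadjusted p under 0.05.

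Among 27 further dual-specificity phosphatases, 21 were tested between 40 and 2 weeks, of which 5 were higher and 1 lower by limma, with a median of 0.00, beside 21.9% and 18.4% of all genes. The share higher is thus about that of all genes. Dusp3 (0.81 ± 0.14, log2, SE) and Dusp27 (0.70 ± 0.13) are atypical members like Dusp15, and Dusp8 (0.996 ± 0.21) and Dusp16 (0.55 ± 0.13) are phosphatases of JNK and p38 kinases. Dusp11, which acts on RNA, fell by 0.45 on the log2 scale. Under the other scalings 4 were higher and 1 lower. Dusp13, the nearest listed neighbour of Dupd1, was at 0.17 and 0.26 from Sham at 10 and 20 weeks and was not called. No gene of the list was called at 10 or 20 weeks by limma, where 2 and 3 of 20 had an unadjusted p under 0.05, beside 12% and 9.49% of all genes.

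Of 30 further genes of Card9 signalling, 18 were tested between 40 and 2 weeks, of which 3 were higher and 1 lower by limma, with a median of -0.04, shares no higher than the 21.9% and 18.4% of all genes. Tab2 (1.35 ± 0.16, log2, SE), Traf6 (0.97 ± 0.20) and Ikbkg (0.84 ± 0.20) were higher, and are known to act between the adaptor and NF-κB. Syk, the kinase upstream of Card9, had 3.21 ± 0.627 units (SD, n = 5) at 40 weeks and 7.24 ± 2.095 (SD, n = 4) at 2 weeks and fell by 0.95 on the log2 scale (limma adjusted p = 0.00265). The other scalings gave 3 higher and 4 lower. At 10 and 20 weeks against Sham 0 genes were called by limma, with 3 of 18 and 2 of 17 at an unadjusted p under 0.05, beside 12% and 9.49% of all genes.

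Of 38 further genes of cilia and flagella, 16 were tested between 40 and 2 weeks, of which 1 was higher and 4 were lower by limma, with a median of -0.06, beside 21.9% and 18.4% of all genes. The other scalings gave 0 higher and 4 lower, beside 27.3% and 26.3% of all genes lower. Hook1, a microtubule linker, was higher by 0.55 ± 0.16 (log2, SE; limma adjusted p = 0.0168), a call lost on the deposited scale (adjusted p = 0.0537 by limma) and with equal totals (adjusted p = 0.0521 by limma). Ift20, Ift57 and Ift27, subunits of intraflagellar transport, fell by 1.27, 0.60 and 0.55 on the log2 scale, and Ccdc39, an assembly factor of motile cilia, by 0.71. Ccdc181 was higher in the same libraries. None of the list was called at 10 or 20 weeks by limma, and none had an unadjusted p under 0.05.

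The clock and glucocorticoid lists were described because of the library pattern above. Of 15 clock genes tested, out of 19, 3 were higher and 3 lower between 40 and 2 weeks by limma (1 and 4 under the other scalings), with a median of -0.14. At 10 weeks 2 were called higher than Sham, Per2 (1.39 ± 0.20, log2, SE) and Tef (0.86 ± 0.16), beside 0.158% of all genes. At 10 and 20 weeks 7 and 4 of 15 had an unadjusted p under 0.05 by limma, 6 and 0 of these higher. The shares of all genes in either direction were 12% and 9.49%. Of 20 glucocorticoid-responsive genes, 5 were higher and 3 lower between 40 and 2 weeks (3 and 5 under the other scalings), with a median of -0.04. Their median difference from Sham was 0.27 at 10 weeks and 0.26 at 20 weeks, beside 0.06 and -0.00 for all genes. None was called by limma, with 6 and 13 of 20 at an unadjusted p under 0.05, 5 and 8 of these higher, beside 12% and 9.49% of all genes in either direction.

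Markers of cell types that could carry the 7 genes were checked as summed levels. None of 6 ciliated cell markers, among them Foxj1 and Tekt1, was listed in any table. The macrophage and monocyte sum, 11 of 12 markers, was 154 to 285 units at 10 weeks and 90.2 to 165 at 20 weeks, against 106 to 225 in Sham, so the groups overlapped where Card9 was high. The neutrophil sum rested on S100a8 and S100a9 alone (2 of 7 markers), with 3.71 to 18.2 units at 10 weeks and 4.78 to 16.3 at 20 weeks, against 1.26 to 10.3 in Sham. The mast cell sum, 5 of 7 markers listed in all tables, was 7.83 to 23.4 units at 10 weeks and 11.4 to 20.0 at 20 weeks, against 7.71 to 13.7 in Sham, above all Sham libraries in 3 and 4 of 5. It was above all Sham libraries in 3 of 4 libraries at 2 weeks (10.5 to 33.1) and in 3 of 5 at 40 weeks (8.76 to 16.1) as well. Of 14 skeletal muscle markers 9 were in no table, Myh1, Myh4 and Actn3 among them, and the sum of those listed, to which Acta1 and Ckm of the heart contribute, was above all Sham libraries in 4 of 5 libraries at 20 weeks. The cardiomyocyte sum was also above all Sham libraries in 4 of 5 at 20 weeks. Of 9 adipocyte markers 3 were listed in all tables and 6, including Adipoq and Plin1, in none. Their sum was 577 to 783 units at 10 weeks, above all Sham libraries in 4 of 5, and 344 to 582 at 20 weeks, against 352 to 588 in Sham, and the part of these cell types in the levels of the 7 genes was not tested.

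These sums also stood at different levels at the 2 times that were tested, with no test of their own. The macrophage and monocyte sum was 67.4 to 155 units in MR at 40 weeks and 154 to 254 in MR at 2 weeks, and the adipocyte sum 198 to 321 and 371 to 702. The fibroblast sum had a median of 771 units at 40 weeks (714 to 1045) and 1682 at 2 weeks (788 to 2636). The atrial cardiomyocyte sum, with 5 of 8 markers listed in all tables and Sln, Bmp10 and Mybphl in none, had a median of 1135 units at 40 weeks (707 to 3011) and 393 at 2 weeks (296 to 1586). At 40 weeks it was above all Sham libraries in 4 of 5, and at 10 and 20 weeks in 2 of 5 each. The labels name no chamber, and the part of these sums in the rise of Ccdc181, Dusp15 and Eya2 was not tested.

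Likeness of pattern was measured as Pearson's r of log2(level + 1) over the 24 libraries among 5461 genes with a mean of at least 10 units. It is a description: the libraries share their groups, and those at 10 and 20 weeks were used to choose the 7 genes. Sult1a1 and Fmo2 were each other's closest match (r = 0.93), followed for both by Fam117b (r = 0.87 with Sult1a1 and 0.89 with Fmo2). The third gene was Lrg1, a secreted glycoprotein, for Sult1a1 (r = 0.83) and Slc43a3, a purine base transporter, for Fmo2 (r = 0.85). Dusp15 and Card9 were also each other's closest match (r = 0.87), followed by Pnpla2, the triglyceride lipase of fat droplets (r = 0.78), and Gramd3 (r = 0.77) for Dusp15, and by Fmo2 (r = 0.84) and Sult1a1 (r = 0.83) for Card9. Eya2 was nearest to Card9 (r = 0.77), Fmo2 (r = 0.75) and Fam117b (r = 0.71).

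Of the 7 genes Sult1a1, Fmo2, Card9 and Dusp15 have that mean and could be matches, and none of them was among the 3 genes nearest to Ccdc181. These were Mknk2, a kinase of the translation factor eIF4E (r = 0.85), Ankrd1, a stretch-responsive protein of the sarcomere (r = 0.84), and Cog4 of the Golgi (r = 0.83). Ankrd1 averaged 2768 ± 936 units (SD, n = 4) at 2 weeks, 3992 ± 1139, 5048 ± 828.9 and 5173 ± 495 (SD, n = 5 each) at 10, 20 and 40 weeks, against 2760 ± 594 (SD, n = 5) in Sham, so like Ccdc181 it had its highest mean at the last time. By Spearman's rho, 10 of the 18 pairs stayed among the 3 nearest. For Ccdc181 only Cog4 did, at rank 1 (rho = 0.89), while Mknk2 was at rank 6 (rho = 0.80) and Ankrd1 at rank 8 (rho = 0.79). Fam117b and Slc43a3 were themselves among the 14 other genes called higher at 10 or 20 weeks.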

How the data were processed

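RNA of rat myocardium was sequenced in 24 libraries and assigned to groups by the labels. Per the submitters' processing notes the authors used Partek with build rn6; the aligner, annotation, counting rule, strand setting and scaling were not given in the sources used here. Values were deposited as a linear signal, normalised gene counts, in 4 tables that each hold an MR time beside the same 5 Sham libraries. They proved to be reads divided by a factor per library: 97.3% to 97.7% were within 0.1 read of a whole read. Reads were rescaled by median ratios over the 10129 genes of all tables, times the mean value of 1 read (0.0466), to give the joined scale.

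MR at 40 weeks was compared with MR at 2 weeks by limma 3.58.1 in R 4.3.3 on log2(joined value + 1), with a mean trend, for genes with a mean of at least 1, with Benjamini-Hochberg adjustment over all of them and two-sided tests. Differences from Sham were fitted in each deposited table. The plan named edgeR for raw counts; as the values are scaled, limma took its place, with edgeR 4.0.16 and DESeq2 1.42.0 on the recovered reads as alternatives. Other alternatives were pseudocounts, filters, scalings, library weights and leaving out each library.

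The 7 genes and the gene lists were chosen with earlier results of these data known. Named are all 7 genes, their nearest listed neighbours, the 3 genes most like each, and from each list up to 4 genes past the threshold, smallest p first, then family partners; Fmo4, Dusp11, Ccdc39, Per2, Arntl, Tef, Fkbp5 and Tsc22d3 were added after their values were seen. Not every gene under this rule is reported here. The fit was tested on simulated data. In 46 pairs of libraries of a group, chi-square per gene was 10.4 to 109, so none was a repeat. Promoters come from RefSeq, assembly GRCr8. Start coordinates on rn6 are as the tables give them, and whether they count from 0 or 1 is not stated. Limits of depth cover counting error only.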

Additional observations from a re-analysis of the deposited data

Results flagged for a closer look

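The difference of MR from Sham was larger at 40 weeks than at 2 weeks for 3 genes, by a test in which the Sham libraries cancel. The change between the times was 1.40 (log2) for Ccdc181, 0.99 for Dusp15 and 0.731 for Eya2, each past the limma threshold, as were 21.9% of all genes tested in that direction. All 5 libraries of 40 weeks were above all 4 of 2 weeks for each, as for 17.9% of all genes tested. In none of 34 sets of a gene and a group did a single library lie far enough from the others to be singled out by its gap over the range of the group. With 4 or 5 libraries a set, that rule picks out only a very wide gap. It therefore does not show that single libraries had little weight.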

How the results depend on the processing

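Between 40 and 2 weeks, 112 of 117 values of the 6 genes under another setting had the same direction and side of the threshold. Sult1a1 reversed to 0.10 with library weights, and over libraries left out in turn it ran from -0.30 to 0.11. Library weights also brought Card9 (0.64) and Fmo2 (0.54) past the threshold, and so did leaving out MR 2 week replicate 1 for Card9; the cause was not tested. Ccdc181 (1.27 to 1.56), Dusp15 (0.84 to 1.17) and Eya2 (0.62 to 0.84) kept their calls without any library, and have no value with a mean of at least 10, a filter they do not reach. That filter, with fewer genes tested, gave 2557 calls (1535 higher, 1022 lower), against 4051; leaving out libraries gave 3025 to 4107, edgeR 4050 (2012 higher, 2038 lower) and DESeq2 4462 (2255 and 2207). At 10 weeks the joined scale gave 7 calls in place of 17, and libraries left out 0 to 29. At 20 weeks a pseudocount of 4 gave 4 in place of 7, and libraries left out 2 to 14. Of 318 differences of the genes from Sham under other settings, 5 moved by over an SD, all with another pseudocount: Dupd1 at 20 weeks, Ccdc181 at 20 (0.91) and 40 weeks (0.99), and Dusp15 at 20 weeks (1.504). No paired analysis was possible, because the labels number the Sham libraries in 1 run and the MR libraries in another, with nothing to match them between groups. In the MR run 1 number among those of the 2 week group has no library. Replicate numbers used here count the libraries of a group in order.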
